A study of Mus musculus with 12 samples.

Results

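Collagens are the structural proteins of the extracellular matrix, and each chain is encoded by a gene whose symbol has the form Col, number, a, number. All probes that carried such a mouse symbol were taken, and a probe was reported when it was well above background in either channel on at least 3 of 12 arrays. The reference table holds 44 collagen genes. A matched probe was found for 42, and 38 of these, with 50 probes, were reported, out of 24562 genes tested in all. Col13a1, Col28a1, Col6a5 and Col6a6 were left out by the filter, and Col6a3 and Col12a1 were not analysed here. Col10a1 was just inside the filter with 3 arrays, and further probes of Col14a1 and Col16a1 were just outside it with 2. Of the 38 genes 34 were above background on all 12 arrays.

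The series asked how nanoparticles in the vitreous change gene expression in the retina. Male C57BL/6 mice aged 5 weeks received phosphate-buffered saline (PBS), gold particles of 20 or 100 nm, or silicate particles of 20 or 100 nm into the right eye, and retinas were collected 7 days later. Each group had 12 mice, and tubes held pools of 4 retinas, so that a group had 3 tubes. The labels write nM for the sizes and number the PBS strain upwards on silicate arrays. These are read here as entry errors for nm, which the growth protocol uses, and for C57BL/6. Each of 3 slides carried 1 array of each particle group. On every array the particle pool was in Cy5 and a PBS pool in Cy3, and no dyes were exchanged, so a dye effect of a probe is part of each ratio to PBS and cancels between particle groups. A group lay at 1 fixed place of each slide, and the effects of place and group cannot be told apart. Ratios are given as log2 of particle over PBS, and levels as normalized log2 intensity. Where 4 values of a slide are listed, gold 20 nm comes first, then gold 100 nm, then silicate 20 nm, and silicate 100 nm last.

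Fibrillar collagens of types I, III and V form the tough fibrils of the sclera, vessel walls and scars. Types II, IX and XI build the thin fibrils of the vitreous gel, on which the retina rests. Type IV forms the network of basement membranes, including the inner limiting membrane and the walls of retinal capillaries, where type XVIII also lies. Type VIII is a short-chain collagen of Descemet's membrane and vessel walls, and type VI forms beaded filaments around cells.

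The slides, and the materials within slide 3, set the arrays apart. The retina itself was well represented, since all 10 rod markers and all 10 Muller glia markers were well above background in PBS on the 12 arrays. The Cy3 levels of a collagen gene were alike on the 4 arrays of most slides, as if these arrays shared a PBS tube, although the labels do not say so. If they did, a comparison with PBS rests on 3 PBS tubes, which the fit without a slide term does not take into account. The median log2 ratio of 9 macrophage and microglia markers was -2.41, -2.82, -1.84 and -2.38 on slide 1, 1.30, 0.58, 0.37 and 0.27 on slide 2, and -0.44, -0.71, 3.25 and 3.54 on slide 3. The rod marker median was 0.31 and 0.32 on the gold arrays of slide 3 and -0.97 and -0.93 on its silicate arrays, which thus stand apart from the other 10. These are pools of whole tissue, in which fewer cells of a type and less RNA per cell cannot be told apart.

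**Figure D1:**
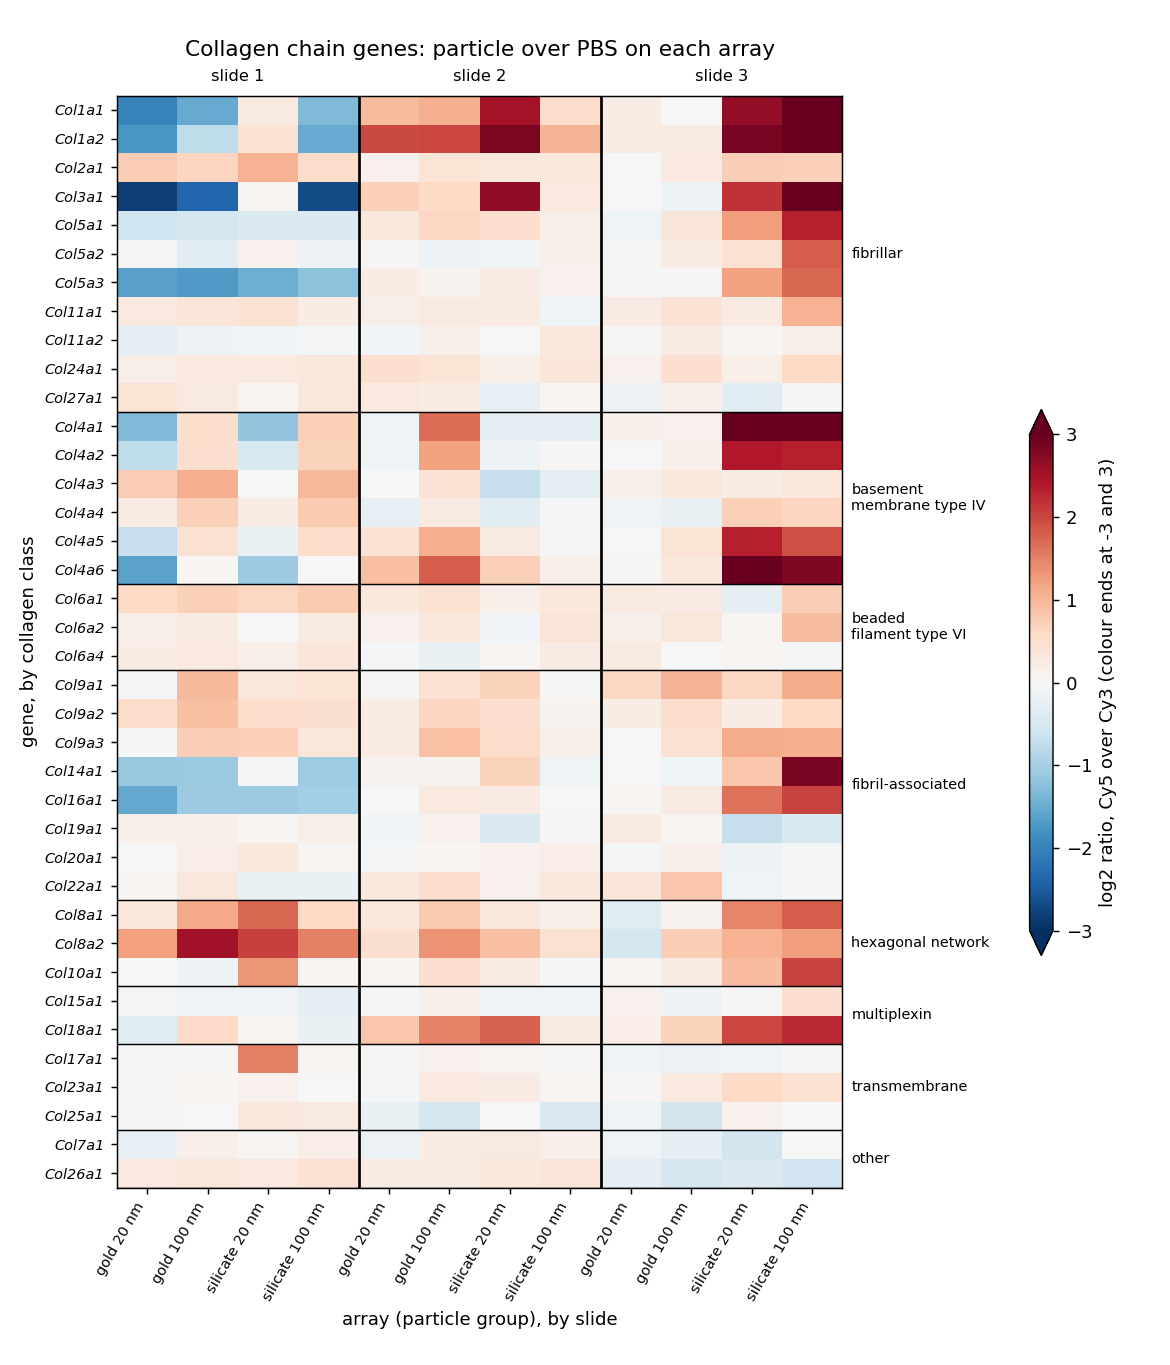
Log2 ratio of particle over PBS for the 38 collagen genes (rows, by class) on the 12 arrays (columns, by slide). Most of the strong colour lies in type I, III, IV, VIII and XVIII chains, blue for type I and III on slide 1 and red on the 2 silicate arrays of slide 3, where Col1a1 reached 5.85.

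Over all 12 arrays, 10 of 38 collagen genes were called higher with particles than with PBS and 0 lower. Among all genes tested, limma called 7.89% higher and 5.99% lower. The 10 were the vitreous fibril chains Col2a1, Col9a1, Col9a2, Col9a3 and Col11a1, the minor fibrillar chain Col24a1, the type VI chains Col6a1 and Col6a2, and the type VIII chains Col8a1 and Col8a2. The median over the 38 genes was 0.28 and over all genes -0.009. The log2 ratio was above 0 on at least 11 arrays for 9 of 38 collagen genes, against 7.47% of all genes. It was above 0 on all 12 for Col2a1, Col9a2 and Col24a1, which is 3 of 38 against 3.62% of all genes. No dyes were exchanged, so a dye effect of a probe is part of each of these signs. With slide as a random block, which treats the arrays of a slide as related, 0 of 38 were called, against 1.39% of all genes called higher, and the adjusted p of the 10 genes ran from 0.0566 to 0.456. With slide as a fixed replicate block 14 of 38 were called higher, against 16.8% of all genes. That block takes the differences between slides out of the error, so it does not allow for a PBS tube shared within a slide. The 10 genes were above 0 on average under every alternative setting run. They were picked for a positive mean on these same arrays, so that sign was largely fixed beforehand. Of the 10, 0 passed without slide 2, 3 passed without slide 1 and 8 without slide 3. Among all genes the calls higher also fell, from 1938 to 233, 562 and 1351 in these settings in turn.

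The 3 type IX chains were called together. Type IX collagen coats the type II fibrils of the vitreous and is made in the eye by the ciliary epithelium. Col9a2 had ratios of 0.56, 0.90, 0.53 and 0.49 on slide 1, 0.23, 0.65, 0.51 and 0.11 on slide 2, and 0.22, 0.52, 0.23 and 0.59 on slide 3. All 12 values were above 0, the 3 gold 100 nm values were the highest or next to highest of their slides, and silicate 100 nm on slide 2 was the lowest. The mean was 0.46 ± 0.23 (SD, n = 12; 1.38-fold; adjusted p = 0.000898, random-block adjusted p = 0.0566). Its PBS level was 8.67, 9.24 and 9.28 on slides 1 to 3.

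Col9a1 had ratios of -0.058, 0.96, 0.34 and 0.40 on slide 1, 0.042, 0.46, 0.68 and 0.03 on slide 2, and 0.62, 1.03, 0.63 and 1.12 on slide 3. The gold 100 nm values were above those of gold 20 nm on each slide, and all 4 arrays of slide 3 were above 0.6. The mean was 0.52 ± 0.39 (SD, n = 12; adjusted p = 0.00949, random-block adjusted p = 0.194). The Col9a1 gene has a longer and a shorter transcript from separate starts, and which of them a probe reads was not determined here. A second Col9a1 probe had a mean of 0.034 and ran from -0.14 to 0.41, so the probes of this gene disagree. Col9a3 ran from -0.032 to 1.12 with a mean of 0.52 ± 0.40 (SD, n = 12; adjusted p = 0.0042, random-block adjusted p = 0.235). Its 2 values below 0 were both gold 20 nm.

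Col2a1, the chain of the main vitreous fibril, had ratios of 0.76, 0.64, 1.05 and 0.55 on slide 1, 0.13, 0.41, 0.32 and 0.32 on slide 2, and 0.015, 0.30, 0.73 and 0.70 on slide 3. No array was below 0, and on slides 2 and 3 gold 20 nm was the lowest. The mean was 0.49 ± 0.30 (SD, n = 12; 1.41-fold; adjusted p = 0.00419, random-block adjusted p = 0.114). Its PBS level was 11.21 on slide 1 and 11.91 and 11.69 on the others, so the slide with the highest ratios was the one with the lowest PBS level. The type XI chains, which set the width of type II fibrils, were uneven. Col11a1 ran from -0.085 to 1.05 with a mean of 0.33 ± 0.27 (SD, n = 12; adjusted p = 0.0295, random-block adjusted p = 0.432), and its highest value was silicate 100 nm on slide 3. Col11a2 had a mean of 0.026 ± 0.17 (SD, n = 12; adjusted p = 0.760) and was above 0 on 6 arrays.

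Col24a1, a minor fibrillar chain, had small ratios that were above 0 throughout, from 0.14 for gold 20 nm to 0.60 for silicate 100 nm, both on slide 3. The mean was 0.33 ± 0.15 (SD, n = 12; 1.26-fold; adjusted p = 0.000912, random-block adjusted p = 0.101). Its levels were low, 6.89 to 7.00 in PBS over the 3 slides. Col27a1, another minor fibrillar chain, ran from -0.33 to 0.42 and was above 0 on 8 arrays (adjusted p = 0.354).

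**Figure D2:**
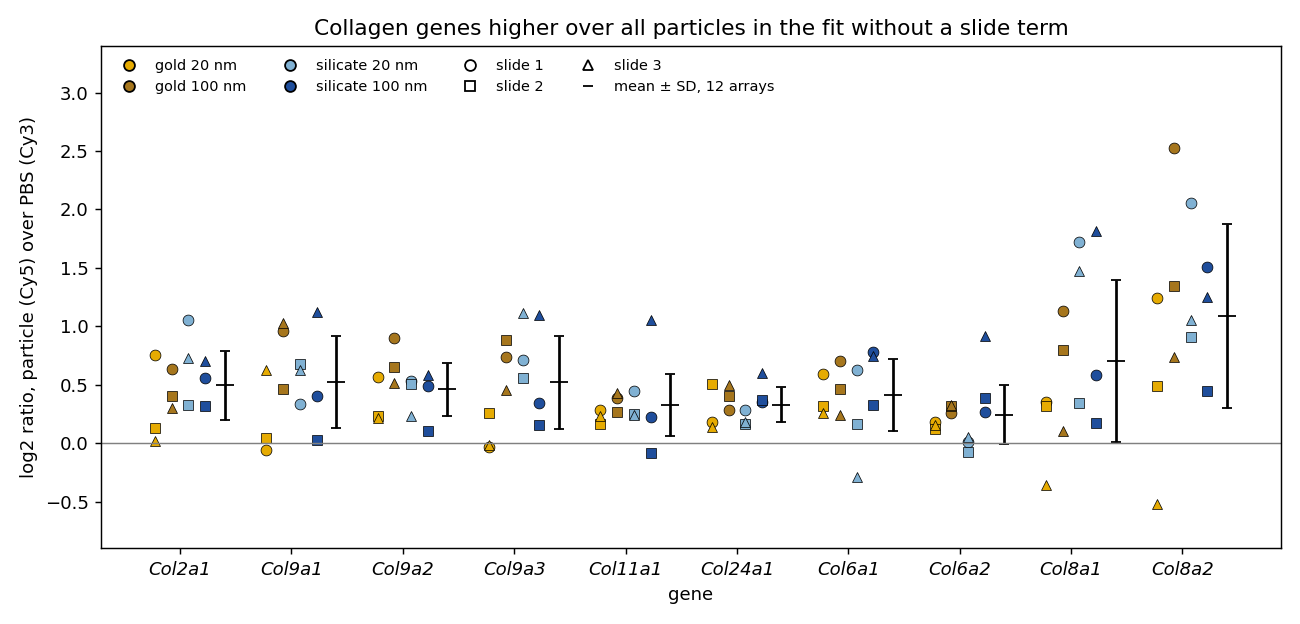
Log2 ratio of particle over PBS (y axis) on each of 12 arrays for the 10 collagen genes called higher in the fit without a slide term. Colour gives the particle group, shape the slide, and the bar the mean ± SD over 12 arrays. The spread is narrow for Col9a2 and Col24a1 and wide for Col8a1 and Col8a2, whose gold 20 nm arrays of slide 3 lie at -0.36 and -0.52.

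Type VIII chains had the largest mean ratios among the genes called. Col8a2 had ratios of 1.24, 2.52, 2.05 and 1.51 on slide 1, 0.49, 1.34, 0.91 and 0.45 on slide 2, and -0.52, 0.74, 1.05 and 1.25 on slide 3. Gold 20 nm on slide 3 was the only array below 0, and all 4 arrays of slide 1 were above 1.2. The mean was 1.09 ± 0.79 (SD, n = 12; 2.12-fold; adjusted p = 0.0075, random-block adjusted p = 0.112). The Col8a2 level in PBS differed by slide, at 7.66, 8.93 and 9.63 on slides 1 to 3, and it was the 1 collagen gene whose PBS level on slide 1 was at least 2-fold under the mean of the other slides. Its particle levels were 8.96 to 10.12 on slide 1, 9.41 to 10.28 on slide 2 and 9.20 to 10.80 on slide 3. A second Col8a2 probe had a mean of 0.27 and ran from -0.14 to 0.54.

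Col8a1, the partner chain of Col8a2, had ratios of 0.35, 1.13, 1.72 and 0.59 on slide 1, 0.32, 0.79, 0.34 and 0.17 on slide 2, and -0.36, 0.10, 1.47 and 1.81 on slide 3. The highest values were silicate 20 nm on slide 1 and both silicate tubes of slide 3. The mean was 0.70 ± 0.69 (SD, n = 12; 1.63-fold; adjusted p = 0.0262, random-block adjusted p = 0.456). Without the 2 silicate arrays of slide 3, Col8a1 was the 1 gene of the 10 that did not pass, with an adjusted p of 0.0565. Col10a1, a network collagen best known from growth plate cartilage, was not well above background in PBS on any array. In the particle channel it was above background on 3 arrays, silicate 20 nm on slides 1 and 3 at levels of 7.73 and 7.14 and silicate 100 nm on slide 3 at 8.15.

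Markers of the pigment epithelium, which adjoins the retina, also differed between the channels. Of 12 pigment epithelium and melanocyte markers 11 were tested, and their median ratio was 1.38, 2.81, 2.22 and 1.89 on slide 1, 0.90, 1.499, 0.74 and 0.19 on slide 2, and -0.39, 0.14, 0.39 and 0.29 on slide 3. As for Col8a2, slide 1 held the highest values. The mean level of the 11 markers ranged over arrays from 10.23 to 12.18 in gold 20 nm, 11.28 to 12.14 in gold 100 nm, 11.35 to 11.49 in silicate 20 nm and 10.33 to 11.67 in silicate 100 nm, and from 8.86 to 11.22 in PBS. In PBS 10 of the 11 were well above background on every array. Limma called 7 of the 11 higher over all particles, against 7.89% of all genes, and 0 with the random block, against 1.39%. Their part in the collagen values was not tested.

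Among beaded filament chains, Col6a1 had ratios of 0.59, 0.70, 0.63 and 0.78 on slide 1, 0.32, 0.46, 0.16 and 0.32 on slide 2, and 0.26, 0.24, -0.29 and 0.75 on slide 3. Silicate 20 nm on slide 3 was the only array below 0. The mean was 0.41 ± 0.31 (SD, n = 12; 1.33-fold; adjusted p = 0.0101, random-block adjusted p = 0.198). Col6a2, its partner in the type VI monomer, had a smaller mean of 0.24 ± 0.26 (SD, n = 12; adjusted p = 0.0133, random-block adjusted p = 0.308), with 11 arrays above 0 and the highest value, 0.92, on silicate 100 nm of slide 3. Col6a4 ran from -0.23 to 0.36 (adjusted p = 0.193).

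The fibrillar chains of types I and III had the widest spread of all members and passed no test. Type I is a heterotrimer of the Col1a1 and Col1a2 products, and type III, from Col3a1, accompanies it in elastic tissues and early scars. Col1a1 had ratios of -2.004, -1.51, 0.26 and -1.33 on slide 1, 0.96, 1.06, 2.50 and 0.54 on slide 2, and 0.22, -0.001, 2.64 and 5.85 on slide 3. On slide 1, 3 of 4 arrays were well below 0, and the silicate arrays of slide 3 and silicate 20 nm on slide 2 were far above it. The mean was 0.77 ± 2.15 (SD, n = 12; adjusted p = 0.424).

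Col1a2 ran the same course, with -1.76, -0.77, 0.45 and -1.504 on slide 1, 1.98, 2.00, 2.83 and 1.02 on slide 2, and 0.21, 0.22, 2.84 and 5.08 on slide 3. Col3a1 had -2.82, -2.37, 0.08 and -2.67 on slide 1, 0.71, 0.59, 2.65 and 0.30 on slide 2, and 0.008, -0.14, 2.17 and 5.20 on slide 3. Silicate 20 nm was the highest array of slides 1 and 2 for each of the 3 genes, and silicate 100 nm was the highest of slide 3. Their means were 1.05 ± 2.00 and 0.31 ± 2.32 (SD, n = 12), with adjusted p-values of 0.249 and 0.789.

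The single channels give both sides of these ratios. In PBS, Col3a1 was at 10.17 on slide 1 and at 6.93 and 7.37 on slides 2 and 3, which put slide 1 8.09-fold above the mean of the other slides. Col1a1 was at 9.77, 7.44 and 7.81, and Col1a2 at 11.35, 8.68 and 9.11. Col1a1 in gold 20 nm was at 7.86, 8.42 and 7.99 on slides 1 to 3, in gold 100 nm at 8.15, 8.43 and 7.81, and in silicate 20 nm at 10.05, 9.91 and 10.31. Silicate 100 nm was at 8.45 and 8.08 on slides 1 and 2 and at 13.84 on slide 3. The 3 silicate 20 nm tubes were thus above all 6 gold tubes on this scale, while silicate 100 nm lay within or next to the gold range on slides 1 and 2. On slide 3 the Cy3 level of Col3a1 was 7.05 to 7.06 on 3 arrays and 8.32 on the silicate 100 nm array, and that of Col1a2 was 8.83 to 8.92 on 3 arrays and 9.85 on that one. The PBS level of these genes is therefore uncertain there.

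**Figure D3:**
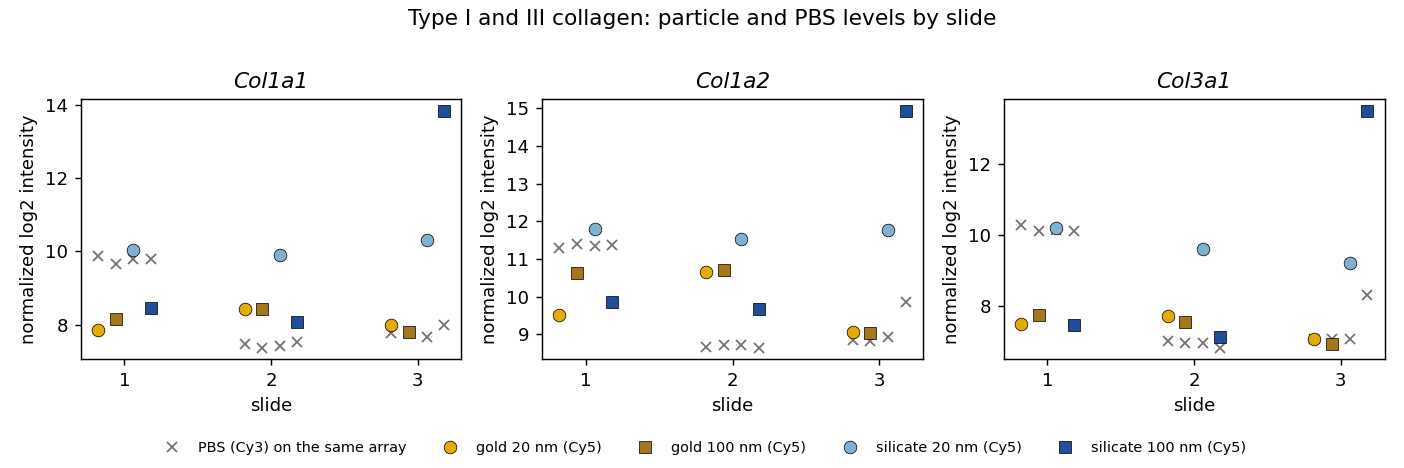
Normalized log2 intensity (y axis) of Col1a1, Col1a2 and Col3a1 by slide (x axis). Filled points are the particle channel of each array and grey crosses the PBS channel of the same array. PBS lies high on slide 1, with Col3a1 at 10.17, and silicate 100 nm on slide 3 lies above all other points.

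The promoter of Col1a2 is shown because CCAAT boxes are known elements of type I collagen promoters. Capitals mark letter matches, and whether these stretches are such elements was not tested. The window is chr6:4505368-4505667 of GRCm38.p6, plus strand, from 250 bases before to 50 after the start, from RefSeq.
Col1a2: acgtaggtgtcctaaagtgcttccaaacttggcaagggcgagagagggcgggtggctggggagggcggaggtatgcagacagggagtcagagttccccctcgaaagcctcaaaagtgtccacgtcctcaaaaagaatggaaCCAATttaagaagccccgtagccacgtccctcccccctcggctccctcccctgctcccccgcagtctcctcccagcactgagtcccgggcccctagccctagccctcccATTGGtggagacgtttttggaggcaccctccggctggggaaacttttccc
The letters CCAAT were searched on both strands, so ATTGG is also marked. They occurred in 2 places here, in 13 of 33 promoter windows of the collagen genes with an entry (39.4%) and in 37.4% of all 32851 windows. A GC box, GGGCGG on either strand, was in 21 of the 33 windows (63.6%) and in 35.7% of all. A match describes the letters only.

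Markers of fibroblasts and sclera also differed between the arrays. Of 10 such markers 8 were tested. Of these 2 were called higher over all particles, against 7.89% of all genes, and 0 with the random block, against 1.39%. Their median ratio was -0.13, 0.31, 0.66 and -0.16 on slide 1, 0.31, 0.51, 2.01 and 0.14 on slide 2, and 0.12, 0.13, 0.65 and 2.19 on slide 3. Silicate 20 nm on slide 2 and silicate 100 nm on slide 3 were the highest for these markers and among the highest for the type I and III chains. Silicate 20 nm on slide 3, at 2.64 for Col1a1, and gold 100 nm on slide 1, at -1.51, had marker medians of 0.65 and 0.31. The mean level of the 8 markers ranged over arrays from 8.71 to 9.76 in gold 20 nm, 9.06 to 9.77 in gold 100 nm, 9.57 to 10.32 in silicate 20 nm and 8.77 to 11.11 in silicate 100 nm, and from 8.35 to 9.23 in PBS. In PBS 6 of the 8 were well above background on every array. Macrophage and microglia markers, as given above, were also lower on slide 1 and higher on the silicate arrays of slide 3. Their part in the collagen values was not tested.

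The type V chains, which nucleate type I fibrils, had smaller ratios that also differed by slide. Col5a3 had ratios of -1.62, -1.71, -1.46 and -1.24 on slide 1, between 0.10 and 0.24 on slide 2, and 0.037, 0.03, 1.21 and 1.73 on slide 3. Its PBS level was 9.94 on slide 1 and 8.31 and 8.24 on the others. Col5a1 ran from -0.59 to 2.34, with 1.26 and 2.34 on the silicate arrays of slide 3 and all 4 values of slide 1 below 0. Col5a2 was well above background in either channel on 6 arrays only, and reached a particle level of 8.01 in silicate 100 nm on slide 3, where its PBS level was not well above background.

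Fibril-associated chains outside type IX fell into a slide-bound pair and a set with a narrower range. Col16a1 had ratios of -1.53, -1.09, -1.08 and -1.01 on slide 1, -0.007, 0.30, 0.25 and -0.002 on slide 2, and 0.056, 0.26, 1.64 and 2.02 on slide 3. Every array of slide 1 was more than 2-fold lower than PBS, whose level was 9.88 there and 8.58 and 8.23 on the other slides. A second Col16a1 probe was at -0.76, -0.62, -0.66 and -0.70 on slide 1 and so stayed under 2-fold there. Col14a1, a chain of dense connective tissue, had a particle level of 9.48 in silicate 100 nm on slide 3 and between 6.24 and 7.53 on the other 11 arrays. Its PBS level was 7.54 on slide 1 and 6.30 and 6.44 on the others. Col19a1, Col20a1 and Col22a1 stayed between -0.70 and 0.82 on all arrays, with adjusted p-values of 0.684, 0.261 and 0.0648.

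Type IV chains pair as alpha 1 with alpha 2 in nearly all basement membranes, and as alpha 3, alpha 4 and alpha 5, or alpha 5 and alpha 6, in special ones. Col4a1 and Col4a2 lie head to head, and their promoter windows in RefSeq overlap by 78 bases on opposite strands of GRCm38.p6. They are shown because the genes ran alike on the arrays, and capitals mark the shared stretch. The window of Col4a1 is chr8:11312777-11313076 on the minus strand and that of Col4a2 is chr8:11312555-11312854 on the plus strand.
Col4a1: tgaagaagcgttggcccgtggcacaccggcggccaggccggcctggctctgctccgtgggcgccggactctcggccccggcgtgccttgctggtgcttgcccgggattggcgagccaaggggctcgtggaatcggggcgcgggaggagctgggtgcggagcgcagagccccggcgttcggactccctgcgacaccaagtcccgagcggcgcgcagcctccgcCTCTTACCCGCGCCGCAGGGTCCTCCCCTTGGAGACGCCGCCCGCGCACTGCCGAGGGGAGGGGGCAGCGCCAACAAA
Col4a2: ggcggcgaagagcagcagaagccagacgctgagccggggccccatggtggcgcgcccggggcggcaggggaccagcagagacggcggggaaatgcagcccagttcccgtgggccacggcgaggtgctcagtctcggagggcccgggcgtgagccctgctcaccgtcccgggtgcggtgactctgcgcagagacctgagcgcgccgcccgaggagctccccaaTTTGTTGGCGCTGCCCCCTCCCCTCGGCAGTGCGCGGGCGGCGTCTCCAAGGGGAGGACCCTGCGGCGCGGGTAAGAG
Both windows held CCAAT and GGGCGG on 1 strand or the other.

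Col4a1 had ratios of -1.33, 0.54, -1.17 and 0.72 on slide 1, -0.13, 1.67, -0.29 and -0.27 on slide 2, and 0.14, 0.12, 3.36 and 3.31 on slide 3. Col4a2 had -0.75, 0.51, -0.48 and 0.69 on slide 1, -0.14, 1.20, -0.16 and 0.04 on slide 2, and 0.007, 0.16, 2.41 and 2.32 on slide 3. Both genes were lower than PBS in both 20 nm tubes of slide 1 and higher in both 100 nm tubes, high in gold 100 nm on slide 2, and highest in both silicate tubes of slide 3. Their means of 0.56 ± 1.52 and 0.48 ± 1.02 (SD, n = 12) did not pass, with adjusted p-values of 0.427 and 0.275.

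In the particle channel Col4a1 took either of 2 ranges. In 7 tubes it was between 9.35 and 9.55, namely gold 20 nm on all slides, gold 100 nm on slide 3, silicate 20 nm on slides 1 and 2 and silicate 100 nm on slide 2. In the other 5 it was between 11.24 and 12.59. Its PBS level was 10.71 on slide 1 and 9.68 and 9.23 on slides 2 and 3. Col4a2 was between 9.13 and 9.42 in the same 7 tubes and between 10.60 and 12.07 in the same 5.

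Col4a5 and Col4a6 shared the high arrays of Col4a1. Col4a5 was at 2.32 and 1.92 on the silicate arrays of slide 3 and at 1.09 in gold 100 nm on slide 2, and Col4a6 at 3.45, 2.81 and 1.81. Col4a6 was also at -1.61 in gold 20 nm and -1.09 in silicate 20 nm on slide 1, where its PBS level was 9.67 against 7.92 and 8.05 on the other slides. A second Col4a6 probe ran only from -0.19 to 0.069 over the 12 arrays, so the Col4a6 values rest on 1 of 2 probes. Col4a3 and Col4a4 had a narrower course, from -0.70 to 1.09 and from -0.35 to 0.78, and their highest values on slide 1 were those of the 100 nm groups. Over all particles Col4a5 had an adjusted p of 0.157, Col4a6 of 0.360, Col4a3 of 0.201 and Col4a4 of 0.238.

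**Figure D4:**
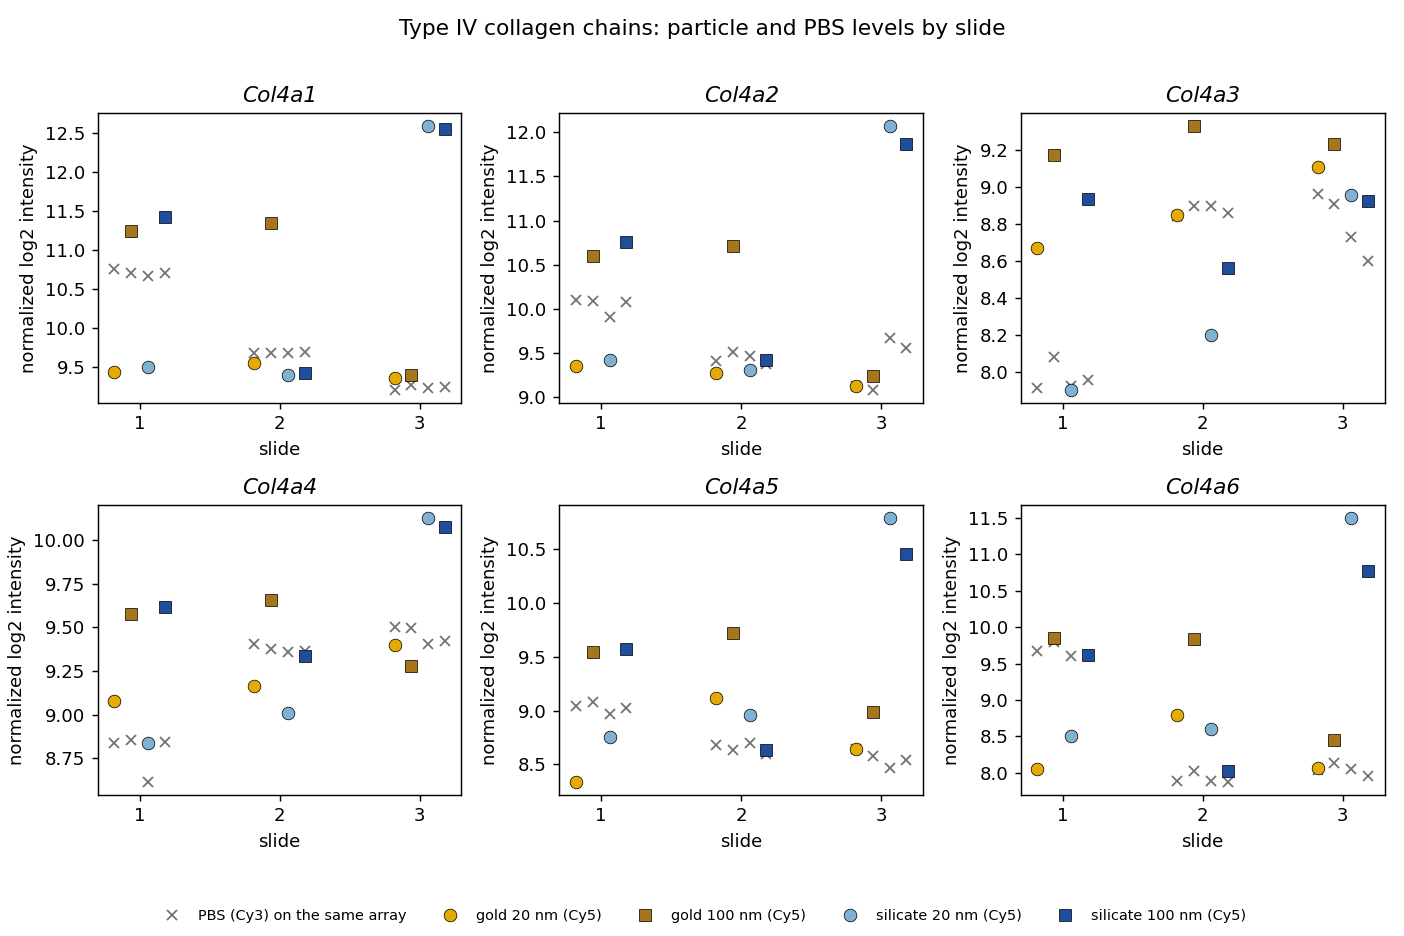
Normalized log2 intensity (y axis, a separate range for each gene) of the 6 type IV collagen genes by slide (x axis), with the particle channel as filled points and the PBS channel of the same array as grey crosses. Col4a1 and Col4a2 have 5 particle tubes well above the other 7, up to 12.59 and 12.07, and Col4a5 and Col4a6 are also highest in the silicate tubes of slide 3.

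Lens cells make type IV collagen for the lens capsule, and lens markers differed between the tubes too. The median ratio of 12 lens markers was -1.26, 0.69, -0.25 and 0.75 on slide 1, -2.24, -1.21, 0.36 and 0.12 on slide 2, and -1.76, -2.15, 0.82 and 1.77 on slide 3. They were positive in the 100 nm tubes of slide 1 and in the silicate tubes of slide 3, as the type IV chains were, and negative in gold 100 nm on slide 2, where the type IV chains were high. Their mean level ranged over arrays from 8.90 to 10.46 in gold 20 nm, 9.62 to 11.25 in gold 100 nm, 9.89 to 12.89 in silicate 20 nm and 11.57 to 13.53 in silicate 100 nm, and from 10.22 to 12.56 in PBS. In PBS 11 of the 12 were well above background on every array. Endothelial markers, of which all 10 were tested, had medians of -0.92 to -0.58 on slide 1, -0.13 to -0.06 on slide 2, and -0.12, -0.08, 0.36 and 0.55 on slide 3. Their part in the collagen values was not tested.

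Col18a1, the basement membrane collagen whose end fragment is endostatin, had ratios of -0.34, 0.58, 0.06 and -0.21 on slide 1, 0.83, 1.48, 1.78 and 0.27 on slide 2, and 0.21, 0.68, 2.00 and 2.23 on slide 3. It was above 0 on 10 arrays, with the silicate tubes of slide 3 highest. The mean was 0.80 ± 0.88 (SD, n = 12; 1.74-fold), and the adjusted p of 0.0565 missed the threshold. A second Col18a1 probe gave a mean of 1.07 and a range of -0.033 to 2.31. Col15a1, its relative in the multiplexin class, was near background and ran from -0.29 to 0.51.

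Transmembrane and remaining collagens changed little. Col23a1, a transmembrane chain, ran from -0.055 to 0.61 with a mean of 0.18 ± 0.21 (SD, n = 12; adjusted p = 0.0517). Its other 2 probes had means of 0.16 and 0.20. Col25a1, a collagen of neuronal membranes, had a mean of -0.095 ± 0.29 (SD, n = 12; adjusted p = 0.405), and its other 2 probes had means of 0.005 and 0.079. Col17a1, the hemidesmosome collagen of epithelia, was between -0.17 and 0.14 on 11 arrays and at 1.52 in silicate 20 nm on slide 1. Col7a1, which forms anchoring fibrils, ran from -0.56 to 0.27. Col26a1 was between 0.24 and 0.44 on all 8 arrays of slides 1 and 2 and between -0.57 and -0.30 on the 4 of slide 3, and its PBS level was 9.25, 9.47 and 10.12 on slides 1 to 3.

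Array by array, the largest shifts fell on single slides. The counts here are over the 33 collagen genes whose PBS channel was well above background on all 12 arrays, beside the same over all such genes. On silicate 100 nm of slide 3, 16 of 33 were at least 2-fold higher than PBS, against 7.4% of all genes. On silicate 20 nm of slide 3 there were 14 of 33, against 7.2%. The 14 were all among the 16, against 6.01% of all genes at least 2-fold higher on both arrays. These arrays share a slide, and whether they share a PBS tube is not known, since their Cy3 levels of Col1a2 and Col3a1 differ. The 14 were Col1a1, Col1a2, Col3a1, Col5a1, Col5a3, Col16a1, Col4a1, Col4a2, Col4a5, Col4a6, Col18a1, Col8a1, Col8a2 and Col9a3. On gold 100 nm of slide 2 there were 8 of 33, against 1.06%, namely Col18a1, Col1a1, Col1a2, Col4a1, Col4a2, Col4a5, Col4a6 and Col8a2. In the other direction, 7 of 33 were at least 2-fold lower on gold 20 nm of slide 1, against 6.08% of all genes, namely Col16a1, Col1a1, Col1a2, Col3a1, Col4a1, Col4a6 and Col5a3. The PBS level of each of these 7 on slide 1 was at least 2-fold above the mean of slides 2 and 3. PBS is the denominator of the ratio by which they were picked, so a high PBS level there is partly built in. All these counts use the brightest probe of a gene. Second probes of Col4a6, Col8a2 and Col18a1 were at -0.19, 0.038 and 1.875 on gold 100 nm of slide 2. On silicate 20 nm of slide 3 they were at 0.069, 0.54 and 2.20, and on silicate 100 nm at -0.006, 0.48 and 2.31. For Col16a1 these silicate values were 0.945 and 1.55. On gold 20 nm of slide 1, Col16a1 was at -0.76 and Col4a6 at 0.061.

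Within a single particle group few collagen genes passed. For gold 20 nm 0 of 38 were called, against 0.598% of all genes called higher and 0.0529% lower, and 3 collagen genes, all higher, had an unadjusted p under 0.05, against 5.16% of all genes higher and 3.51% lower. For gold 100 nm, Col9a2 was called higher, 1 of 38 against 0.782% of all genes, and 0 were lower, against 0.122%. Its 3 ratios were 0.90, 0.65 and 0.52, with a mean of 0.69 ± 0.20 (SD, n = 3; 1.61-fold; adjusted p = 0.0262). It also passed with the random block, where 0.562% of all genes were called higher, with an adjusted p of 0.0483. It did not pass with processed signals (adjusted p = 0.133), with the authors' deposited value table (adjusted p = 0.0502) or without any one slide (adjusted p = 0.134 to 0.556). For silicate 20 nm 0 of 38 were called, against 1.43% of all genes higher and 0.436% lower, with 10 collagen genes higher and 1 lower at an unadjusted p under 0.05, against 8.4% and 6.64% of all genes.

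For silicate 100 nm, Col24a1 was called higher, 1 of 38 against 0.774% of all genes, and 0 were lower, against 0.118%. Its 3 ratios were 0.35, 0.37 and 0.60, with a mean of 0.44 ± 0.14 (SD, n = 3; adjusted p = 0.0464). With the random block its adjusted p was 0.125 and 0 of 38 were called, against 0.684% of all genes. With the replicate block, which does not allow for a PBS tube shared within a slide, more genes passed. In gold 100 nm 5 were called higher, Col8a2, Col9a1, Col9a2, Col22a1 and Col24a1, against 3.49% of all genes, and Col25a1 was called lower, against 2.7%. In silicate 20 nm they were Col2a1, Col8a2, Col9a2, Col9a3 and Col23a1, against 4.78%. In silicate 100 nm they were Col2a1, Col6a1, Col6a2, Col8a2 and Col24a1, against 2.59%. The Col25a1 call in gold 100 nm rests on its brightest probe, with a mean of -0.36 there. Its other, dimmer probes had means of 0.13 and -0.007 in that group.

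No difference of a collagen gene between particle groups passed. Gold against silicate, 100 nm against 20 nm, and the difference between the size effects of the materials each had 0 of 38 collagen genes called, against 0% of all genes in either direction. With the random block 0 of 38 were called for gold against silicate, against 0.0326% of all genes higher in gold and 0.0163% lower. At an unadjusted p under 0.05 in the fit without a slide term the collagen genes numbered 2 for material, 1 for size and 1 for their interaction, all in the higher direction. The shares of all genes in that direction were 2.79%, 0.395% and 0.354%. For the type I and III chains the mean was lower in gold than in silicate, with wide intervals. Gold minus silicate was -1.96 for Col1a1, with a 95% interval of -4.57 to 0.65, -1.47 for Col1a2 (-3.99 to 1.05) and -1.96 for Col3a1 (-4.81 to 0.89), all with an adjusted p of 0.883. Without slide 3 these differences were -0.87, -0.33 and -1.06, and silicate 100 nm was below gold 100 nm on slides 1 and 2 for Col1a2 and Col3a1. For Col9a2 it was 0.10 (-0.15 to 0.36) and for Col2a1 -0.24 (-0.60 to 0.13).

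At matched size, which was compared after the data were seen, 0 collagen genes and 0 of all genes differed between silicate and gold with either slide model or with none. Silicate 20 nm minus gold 20 nm for Col1a1 was 2.27, 1.54 and 2.43 on slides 1 to 3, a mean of 2.08 with a standard error of 1.65 (adjusted p = 0.998). The 3 differences lie closer together than that error, which includes the spread between slides, and with slide as a fixed block the adjusted p was 0.573. Silicate 100 nm minus gold 100 nm was 0.18, -0.52 and 5.85, so that difference rests on slide 3. Col22a1, a collagen of tissue junctions, was lower in silicate than in gold of the same size and slide in 6 of 6 pairs, by 0.18 to 0.87. Col25a1 was higher in 6 of 6, by 0.08 to 0.52, and so was Col5a3, by 0.026 to 1.70. These are 1 of 38 lower, against 4.09% of all genes, and 2 of 38 higher, against 5.05%. The Col25a1 count rests on its brightest probe. A dimmer probe was at 0.39 in gold 20 nm and 0.054 in silicate 20 nm on slide 1. Another was at 0.28 and -0.014 on slide 3, so neither was higher in silicate in every pair. Gold minus silicate was 0.43 for Col22a1 (0.16 to 0.69; adjusted p = 0.883) and -0.27 for Col25a1 (-0.59 to 0.04; adjusted p = 0.883). For size, 100 nm minus 20 nm was 0.34 for Col6a2 (0.11 to 0.57; adjusted p = 1) and 0.92 for Col4a1 (-0.98 to 2.82; adjusted p = 1).

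Genes that build, cross-link and bind collagen give the setting. Of 31 genes of collagen synthesis and cross-linking, 4 were called higher over all particles and 1 lower, against 7.89% and 5.99% of all genes. Their median was 0.11 against -0.009 for all genes. P4ha2, a subunit of the prolyl hydroxylase that stabilizes the triple helix, had a mean of 0.44 and was above 0 on 12 arrays (adjusted p = 0.00389). P3h3, a prolyl 3-hydroxylase, had 0.28 (adjusted p = 0.00603), and Colgalt2, which adds galactose to collagen, 0.25 (adjusted p = 0.00718). Adamts3, which removes the amino propeptide of type II collagen, had -0.19 and was below 0 on 10 arrays (adjusted p = 0.00625). Loxl1, a lysyl oxidase that cross-links fibres, named here after its values were seen, had 0.755 (adjusted p = 0.0394). With the random block 0 of the 31 were called, against 1.39% of all genes higher and 0.22% lower.

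Small leucine-rich proteoglycans bind collagen fibrils and set their spacing. Over all particles 4 of the 9 tested were called higher, against 7.89% of all genes, and their median was 1.16. Optc, opticin of the vitreous, had a mean of 2.87 and ran from 0.41 to 4.004 (adjusted p = 0.00032). Fmod, fibromodulin, had 1.16 (adjusted p = 0.000673), Ogn, osteoglycin, 1.53 (adjusted p = 0.00629) and Podn, podocan, 1.23 (adjusted p = 0.0204). With the random block 0 of the 9 were called, against 1.39% of all genes higher, and the adjusted p of Optc was 0.0671. Of 8 collagen receptors 0 were called, against 7.89% of all genes higher and 5.99% lower, with a median of -0.027. On the silicate arrays of slide 3 the median ratios were 1.09 and 1.05 for the receptors, and 1.19 and 1.29 for 16 genes whose products join type IV collagen in basement membranes.

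**Figure D5:**
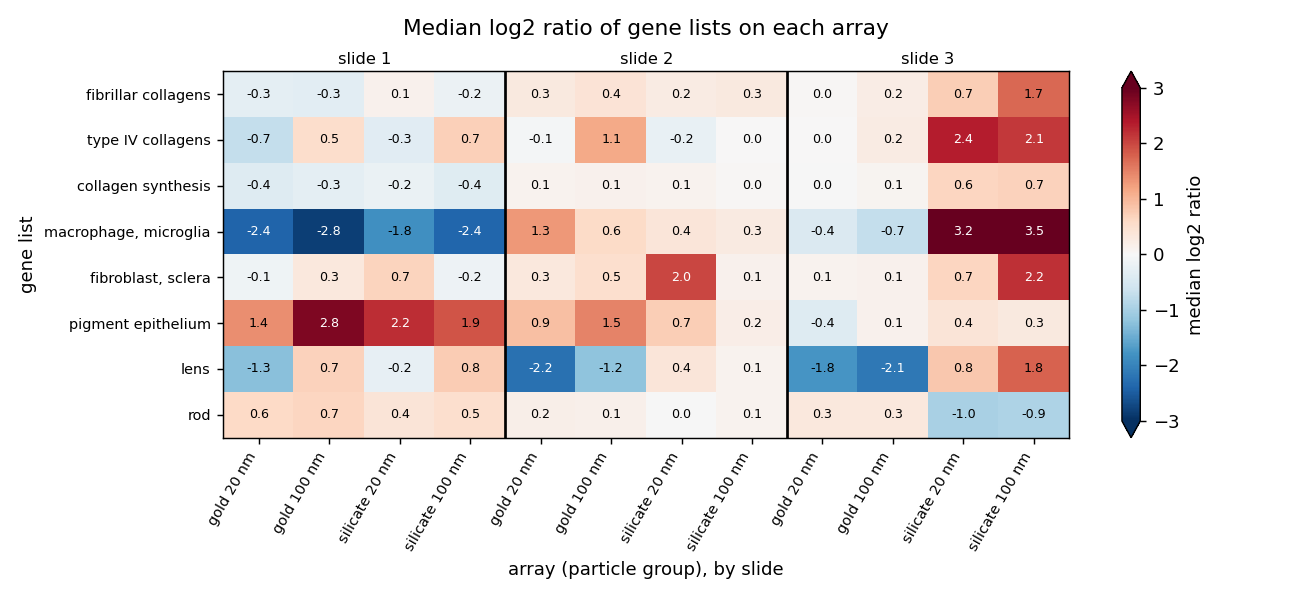
Median log2 ratio of particle over PBS (colour and printed value) for collagen lists and marker lists (rows) on the 12 arrays (columns, by slide). On the silicate arrays of slide 3 the type IV collagens, at 2.37 and 2.12, and the macrophage and microglia markers, at 3.25 and 3.54, were both high, while the rod markers were below 0.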

How the data were processed

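RNA from mouse retina was measured on 12 two-colour Agilent arrays of 4 particle groups. Each array's deposited file holds scanner intensity. Per the file headers it came from Agilent Feature Extraction 11.0.1.1, and the submitters' processing notes give 9.3.2.1 as the version. The median foreground and median local background intensity of each channel were used. The deposited log10 ratio of each array served to find the scale of the deposited value table, which holds log2 ratios of Cy5 over Cy3. Its slope on the log10 ratios was 3.3 to 3.32 and its column medians were 0.016 to 0.11, and how the authors centred it stays unknown.

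The signals went through normexp background correction (offset 50) and within-array loess normalization in which control spots had weight 0. Outlier spots, 149 to 257 per array, were left out, and the spots of a probe were averaged. Symbols came from the GRCm38.p6 gene table of RefSeq. None of its coordinates were used for probes, whose annotation is mm9. Of 32334 RefSeq-type probes, 6279 had no match. Kept probes were well above background in either channel on at least 3 of 12 arrays, and the brightest kept probe stood for its gene. Log2 ratios were tested with lmFit and eBayes (limma 3.58.1, R 4.3.3), two-sided, in 1 fit over all 12 arrays with 4 group means. P-values were adjusted by Benjamini-Hochberg over all genes tested, with a threshold of 0.05, and an adjusted p in the text is from this limma fit unless a block or a left-out set of arrays is named beside it, in which case it is from limma refitted that way. Single-channel levels are loess- and Aquantile-normalized log2 intensities. The number of arrays limits the precision.

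The replicate number is the slide. Deviations from the group means correlated, across genes, at 0.892 to 0.937 between the arrays of slide 1, at 0.0957 to 0.834 on slide 2 and at 0.576 to 0.918 on slide 3. Same-numbered arrays share a slide per the file headers and are thus paired. Slide as a fixed block and as a random block (consensus correlation 0.488) were alternatives. The analysis steps were run on simulated data in which all arrays were independent. The real arrays of a slide correlate, so that run does not show how slides affect the calls. Members and lists were chosen with earlier results of these data known. Every member was described by class, members past the threshold were named in each comparison, and of each other list at most 4 genes were named, apart from Loxl1, which was added after its values were seen. The comparison of silicate with gold at matched size was chosen after the data were seen.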

Additional observations from a re-analysis of the deposited data

How the results depend on the processing

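Over all particles, all 10 collagen genes called also passed under processed signals, median centring, no background correction and the authors' value table. They passed too under both other filters on dim probes, the mean over probes and the replicate block, which called 14 in all. That block does not allow for a PBS tube shared within a slide. With slide as a random block 0 were called, leaving out a slide gave 0 to 9, and leaving out slide 1 together with the 2 silicate arrays of slide 3, an alternative chosen after seeing the data, gave 1, Col9a2. Calls over all genes were 1938 higher and 1472 lower in the main setting, but 2563 and 878 with median centring, 1246 and 946 with processed signals, 4134 and 4132 with the replicate block, and 341 and 54 with the random block. They were 562 and 276 without slide 1, 233 and 24 without slide 2, and 1351 and 605 without slide 3. With the added alternative they were 426 and 66. For gold 100 nm the 1 call became 2 with median centring and with no background correction, 6 with the replicate block, 3 without the 2 silicate arrays of slide 3, and 0 without any one slide or with the added alternative. With processed signals and with the value table the count was also 1, but the gene was not Col9a2, which did not pass there. For silicate 20 nm the 0 calls became 1 with processed signals, median centring, the value table and the stricter filter, and 5 with the replicate block. For silicate 100 nm the 1 call became 2 with those same 4 settings, 5 with the replicate block, and 0 with the random block, without any one slide, without the 2 silicate arrays and with the added alternative. The other comparisons kept 0 calls in every setting run. Gold minus silicate changed sign without slide 3, without its 2 silicate arrays and, for the type IV chains, with the added alternative: to 0.16 and 0.098 for Col18a1, to 0.44, 0.42 and 0.73 for Col4a1, and to 0.18, 0.14 and 0.37 for Col4a2. Over the 3 settings that each leave out a slide the difference ran from -0.77 to 0.16, from -1.69 to 0.44 and from -1.26 to 0.18 for these genes. The cause of these changes was not tested, and these settings also hold fewer arrays. Mean signals in place of median signals were not run, since the columns used here hold none. Col10a1, Col14a1, Col15a1 and Col5a2 lie near background, which limits their ratios.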

Other observations

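Further marker lists give the makeup of the tubes beside the collagen values. Neutrophil markers, 7 tested, had median log2 ratios of -2.80, -2.73, -2.63 and -2.96 on slide 1, 0.10, -0.08, 0.89 and 0.69 on slide 2, and 0.03, -0.15, 1.39 and 2.66 on slide 3. The median of the mural cell markers, 9 tested, was between -0.09 and 0.27 on 11 arrays and 1.18 in silicate 100 nm on slide 3, the array on which type I and III collagen was also highest. Markers of cornea and ciliary epithelium, 9 tested, had medians between -0.20 and 1.03, with 4 called higher over all particles and 1 with slide as a random block. The median of the Muller glia markers was between -0.01 and 0.58 on all arrays, while Vim ran from -1.87 to 2.14 and Apoe from -0.84 to 3.45, with 2 of 10 called higher and 0 with the random block. Of 10 endothelial markers 1 was called lower and 0 with the random block. Among all genes 7.89% were called higher and 5.99% lower over all particles, and 1.39% and 0.22% with the random block.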
